A study of Arabidopsis thaliana with 27 samples.

Results

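Levels of 10 genes of the Arabidopsis cuticle were followed through a shade experiment: CER1, CER3, CER4, WSD1, MAH1, KCS6 (also called CER6), KCS1, LACS2, SHN1 and MYB16. They were chosen by name for their roles in making cuticular wax and cutin, and are 10 of the 34262 genes in the count table. The study grew whole seedlings for 7 days and used messenger RNA sequencing to follow the transcriptional response to the light reflected by neighbouring plants. Each of 3 genotypes was sampled in high red to far-red light (HRFR, white light) and after 1 h and 25 h of low red to far-red light (LRFR, white light with added far-red), all harvested at the same hour of the same day. The genotypes were pif457, which carries pif4-101, pif5-3 and pif7-1 mutations in 3 of the PIF transcription factors that drive shade responses, plants labelled hfr1-101, a mutant of the PIF antagonist HFR1, and the wild type Col-0. Each of the 9 groups held 3 libraries, and each library was a pool of seedlings. Whole seedlings mix roots, hypocotyls and cotyledons, so fewer cells of a type and less RNA per cell cannot be told apart.

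The cuticle is the waxy coat on the aerial epidermis that limits water loss. Very-long-chain fatty acids are built by elongase complexes, whose condensing enzymes include KCS6 and KCS1, and are then turned into alkanes, alcohols and esters in the epidermis. Cutin, the polymer that holds the wax, is made from oxygenated fatty acids activated by acyl-CoA synthetases, and transcription factors such as SHN1 and MYB16 switch on genes of both routes.

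MYB16 was the member with the clearest light response. Its level after 1 h of LRFR was lower than that in HRFR in libraries labelled hfr1-101 and in Col-0, its difference from HRFR at 25 h did not pass the test, and the response at 1 h differed between pif457 and Col-0. CER3 showed smaller changes in the same directions. CER1, CER4 and KCS1 were called in no comparison of the edgeR fit of all 27 libraries, WSD1 and SHN1 were near the limit of detection, and MAH1 gave almost no reads.

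The start regions of MYB16, CER3 and KCS6 are shown because these 3 genes had an adjusted p below 0.05 for LRFR 1 h against HRFR in Col-0. Each runs 5′ to 3′ on the gene's strand, from 250 bases before to 50 bases after the gene start annotated by RefSeq on the TAIR10.1 assembly: MYB16 on chr5:4974421-4974720 (plus strand), CER3 on chr5:23419934-23420233 (plus strand) and KCS6 on chr1:25714975-25715274 (minus strand). The G-box (CACGTG) and the PBE-box (CACATG), the 2 motifs that PIFs are known to bind, and the epidermal L1 box (TAAATGCA or TAAATGTA) were searched on both strands, and no match in the 10 regions overlaps another. Capitals mark a PBE-box, which reads CATGTG where it lies on the opposite strand.
MYB16: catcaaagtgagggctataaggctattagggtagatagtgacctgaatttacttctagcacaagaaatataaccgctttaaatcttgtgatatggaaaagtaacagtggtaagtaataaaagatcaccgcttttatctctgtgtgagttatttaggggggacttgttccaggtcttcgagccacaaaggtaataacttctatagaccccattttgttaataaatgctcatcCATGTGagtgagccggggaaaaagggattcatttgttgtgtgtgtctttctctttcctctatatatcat
CER3: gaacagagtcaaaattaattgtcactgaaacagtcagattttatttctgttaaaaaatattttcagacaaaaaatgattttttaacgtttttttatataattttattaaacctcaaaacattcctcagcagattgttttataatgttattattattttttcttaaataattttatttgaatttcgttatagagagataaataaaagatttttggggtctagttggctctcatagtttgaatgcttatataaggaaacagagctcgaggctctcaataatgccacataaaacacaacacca
KCS6: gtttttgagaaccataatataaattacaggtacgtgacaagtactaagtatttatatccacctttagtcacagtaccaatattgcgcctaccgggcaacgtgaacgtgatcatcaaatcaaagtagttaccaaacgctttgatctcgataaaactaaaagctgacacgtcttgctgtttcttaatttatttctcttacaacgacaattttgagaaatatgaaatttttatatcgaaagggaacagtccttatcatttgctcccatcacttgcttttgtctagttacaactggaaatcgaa
The MYB16 region held 1 PBE-box, on the opposite strand at bases -19 to -14 from the gene start. None of the 10 members had a G-box or an L1 box in this window. CER1 (bases 5 to 10), SHN1 (bases 9 to 14) and MAH1 (bases -193 to -188) also had 1 PBE-box each. Among 27443 protein-coding genes, 7.68% held a G-box, 12.9% a PBE-box and 5.1% an L1 box in the same window. These matches describe letters only, and bases outside this window, where PIFs can also bind, were not searched.

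A library held between 24857067 and 34863803 reads assigned to genes (median 28117160), and levels are given in CPM, a gene's reads scaled to a common library size. PIF7 averaged 3.24 ± 0.55 CPM in pif457 and 51.0 ± 2.3 in Col-0 in HRFR, PIF5 averaged 12.8 ± 1.2 CPM in pif457 and 156 ± 10 in Col-0, and PIF4 averaged 50.7 ± 0.03 CPM in pif457 and 104 ± 2 in Col-0 (SD, n = 3 each), so those libraries match their labels. HFR1 transcript was not lower in the libraries labelled hfr1-101, with 124 ± 19 CPM at 1 h against 107 ± 27 in Col-0, and it therefore does not check that label. On the main axis of variation within groups, replicate 1 of Col-0 at LRFR 25 h lay at -38.5 and replicate 1 of Col-0 in HRFR at -32.1, away from the other libraries, which lay between -16.3 and 23.5. The main results that rest on Col-0 are also given without these libraries. All 6 epidermis markers, among them ATML1, PDF1 and KCS10, were detected in every library, and their summed level ranged from 685 to 898 CPM. KCS10, at a median of 358 CPM, made up a large part of that sum. It belongs to the KCS family, like the members KCS6 and KCS1.

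Per kilobase of exon, KCS1 and KCS6 had the highest levels of the 10, with medians of 139 and 129 CPM per kb over the 27 libraries. CER3 followed at 53.8, then LACS2 at 25.0, MYB16 at 12.8, CER1 at 10.1 and CER4 at 4.34 CPM per kb. The ranges over libraries of KCS1 (105 to 207 CPM per kb) and KCS6 (91.1 to 175) overlapped, as did those of MYB16 (6.05 to 17.7) and CER1 (6.78 to 23.5), while CER3 (42.1 to 66.0) overlapped neither KCS6 above it nor LACS2 (19.5 to 33.2) below it. WSD1 at 0.147 and SHN1 at 0.0948 CPM per kb were far below CER4, and MAH1 was at 0 in 24 libraries. Of the members, 8 were abundant enough for the edgeR test over 20887 genes, and SHN1 and MAH1 were not. None of the 10 overlaps another annotated gene, and no stretch of 50 exonic bases of any of them occurs elsewhere in the genome.

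**Figure D1:**
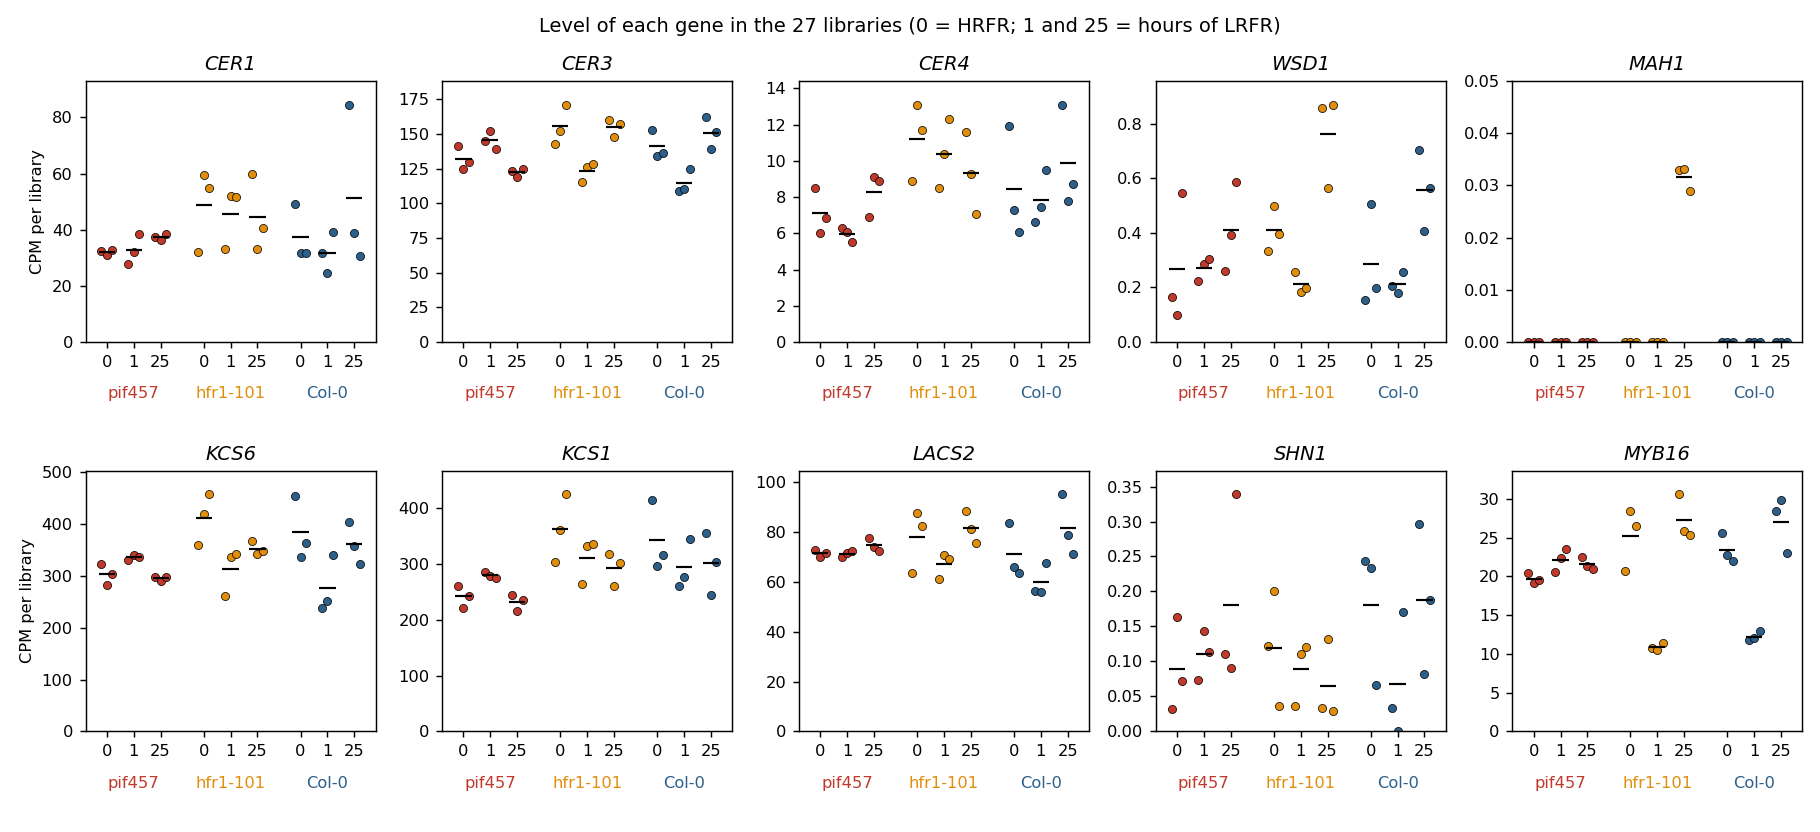
Level of each of the 10 genes in CPM (y axis, linear, from 0) in every library, by hours of LRFR (x axis, 0 for HRFR) within pif457, hfr1-101 and Col-0; points are libraries and bars are means of 3. MYB16 sits between 10.5 and 12.9 CPM after 1 h of LRFR in hfr1-101 and Col-0, against 20.6 to 23.5 CPM in pif457.

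MYB16 (AT5G15310, chr5:4974671-4976470, plus strand) encodes an R2R3 MYB factor that promotes cuticle formation in the epidermis. The pif457 libraries had 20.5, 19.1 and 19.5 CPM in HRFR, then 20.6, 22.4 and 23.5 CPM after 1 h and 22.5, 21.3 and 20.9 CPM after 25 h of LRFR. Libraries labelled hfr1-101 had 20.7, 28.4 and 26.5 CPM in HRFR, then 10.8, 10.5 and 11.4 CPM after 1 h and 30.6, 25.9 and 25.4 CPM after 25 h. Col-0 had 25.6, 22.8 and 22.0 CPM in HRFR, then 11.8, 12.0 and 12.9 CPM after 1 h and 28.4, 29.8 and 23.0 CPM after 25 h. All 6 libraries at 1 h from plants labelled hfr1-101 and from Col-0 were below the other 21 libraries.

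A gene was called when its adjusted p in edgeR's quasi-likelihood test was below 0.05 and, in light comparisons, its log2 fold change was also beyond 0.6 in size. In pif457 the log2 change of MYB16 after 1 h of LRFR was 0.17, with a 95% interval of -0.05 to 0.39 (adjusted p = 0.924). MYB16 fell by 1.21 on the log2 scale (SE 0.11, adjusted p = 1.31e-08) in libraries labelled hfr1-101 and by 0.95 (SE 0.11, adjusted p = 8.62e-07) in Col-0, where it reached 0.519 times the HRFR level. At 25 h it was higher than at 1 h by 1.32 (adjusted p = 3.76e-09) in libraries labelled hfr1-101 and by 1.15 (adjusted p = 4.51e-08) in Col-0. Its difference from HRFR at 25 h was 0.13 (adjusted p = 0.696) in pif457, 0.12 (adjusted p = 0.465) in libraries labelled hfr1-101 and 0.20 (adjusted p = 0.238) in Col-0. The calls of MYB16 held in every fit without 1 library, and without both distant Col-0 libraries its change at 1 h in Col-0 was -0.88 (adjusted p = 1.34e-05).

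The light response of MYB16 differed between pif457 and Col-0 at 1 h, by 1.12 on the log2 scale (SE 0.15, adjusted p = 4.05e-05, interaction term in edgeR). MYB16 was also higher in pif457 at 1 h, by 0.86 (SE 0.11, adjusted p = 3.96e-06), with 3 of 3 libraries above every Col-0 library. In HRFR it was -0.25 (adjusted p = 0.171) and at 25 h -0.33 (adjusted p = 0.0523) in pif457 against Col-0, and in both conditions the 3 pif457 libraries lay below the 3 Col-0 libraries. The 25 h difference of MYB16 was called by DESeq2 (-0.34, adjusted p = 0.0283), with DESeq2 size factors (0.0437), with no filter (0.0486), in a fit of the 18 pif457 and Col-0 libraries (0.037) and in 8 of the 27 fits without 1 library, but not without both distant Col-0 libraries (-0.30, adjusted p = 0.109). For plants labelled hfr1-101 the interaction at 1 h was -0.26, with a 95% interval of -0.57 to 0.06, and it did not pass the test (adjusted p = 1). The 6 epidermis markers had a median log2 change at 1 h of -0.08 in libraries labelled hfr1-101 and -0.16 in Col-0, and 0 were called. With no fold threshold ATML1 was lower at 1 h in libraries labelled hfr1-101 (-0.44, edgeR adjusted p = 0.000527) and in Col-0 (-0.37, adjusted p = 0.00445), and PDF2 in libraries labelled hfr1-101 (-0.28, adjusted p = 0.0381), changes of a size like those of CER3 and KCS6. The part of epidermal content in the changes of MYB16, CER3 and KCS6 was not tested.

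SHN1 (AT1G15360, chr1:5283268-5284736, plus strand), also known as WIN1, is an AP2/ERF factor that activates cutin and wax genes. It had 94 reads over the 27 libraries, with 0 to 11 in a library, and it did not pass the filter on low counts. Its highest library was pif457 LRFR 25 h replicate 3 at 0.339 CPM (11 reads), with the other 2 libraries of that group at 0.111 and 0.0907. A count of 3 reads in a library corresponds to 0.087 to 0.129 CPM. In a fit with no filter the smallest adjusted p of SHN1 over the 19 comparisons was 0.34, so differences between groups were not detectable at this depth.

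KCS6 (AT1G68530, chr1:25712414-25715024, minus strand) is the condensing enzyme for the longest wax precursors. The pif457 libraries had 324, 283 and 304 CPM in HRFR, then 331, 341 and 337 CPM after 1 h and 298, 291 and 299 CPM after 25 h of LRFR. Those labelled hfr1-101 had 359, 420 and 458 CPM in HRFR, then 261, 337 and 343 CPM after 1 h and 368, 343 and 348 CPM after 25 h. The Col-0 libraries had 455, 336 and 364 CPM in HRFR, then 238, 251 and 341 CPM after 1 h and 404, 358 and 323 CPM after 25 h. In Col-0, replicate 3 at 1 h lay within the range of HRFR, while the other 2 libraries at 1 h were the lowest 2 of all 27.

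The log2 change of KCS6 at 1 h was 0.15 (edgeR adjusted p = 0.967) in pif457, -0.39 (adjusted p = 0.0815) in libraries labelled hfr1-101 and -0.48 (SE 0.13, adjusted p = 0.0271) in Col-0, the last under the fold threshold. Leaving out replicate 3 of Col-0 at 1 h gave -0.64 (adjusted p = 0.00131), past both thresholds, and leaving out replicate 1 of Col-0 in HRFR gave -0.34 (adjusted p = 0.24). The interaction of pif457 with light was 0.62 (SE 0.18, adjusted p = 0.0812), and 0.61 with adjusted p = 0.0375 by DESeq2. It was called without replicate 2 of Col-0 in HRFR (0.71, adjusted p = 0.0444) and without replicate 3 of Col-0 at 1 h (0.78, adjusted p = 0.0071). At 1 h KCS6 averaged 336 ± 5 CPM in pif457 and 277 ± 56 CPM in Col-0 (SD, n = 3 each).

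KCS1 (AT1G01120, chr1:57164-59215, minus strand), another condensing enzyme of the elongase, was called in no comparison of the edgeR fit of all 27 libraries. It averaged 242 ± 20 CPM in pif457, 363 ± 61 in libraries labelled hfr1-101 and 342 ± 63 in Col-0 in HRFR (SD, n = 3 each). The pif457 libraries in HRFR (261, 222 and 243 CPM) were all below those of Col-0 (414, 296 and 317 CPM), a log2 difference of -0.50 (SE 0.14, edgeR adjusted p = 0.0579). By DESeq2 this difference in KCS1 had an adjusted p of 0.0215, and with replicate number as a block in edgeR 0.0429, and it was also called in 6 of the 27 fits without 1 library. Without both distant Col-0 libraries it was -0.34 (adjusted p = 0.21). At 25 h the difference between pif457 and Col-0 was -0.38 (adjusted p = 0.104). There the libraries were separated only narrowly, with 244 CPM in the highest of pif457 and 245 CPM in the lowest of Col-0. Without replicate 2 of Col-0 at 25 h that KCS1 difference was called (-0.51, adjusted p = 0.0357).

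CER3 (AT5G57800, chr5:23420184-23424117, plus strand) works with CER1 to turn very-long-chain acyl-CoAs into alkanes. Its level in pif457 was 141, 125 and 130 CPM in HRFR, then 145, 152 and 139 CPM after 1 h and 123, 119 and 125 CPM after 25 h of LRFR. Libraries labelled hfr1-101 gave 143, 152 and 171 CPM in HRFR, then 115, 126 and 128 CPM after 1 h and 160, 148 and 157 CPM after 25 h. Col-0 gave 153, 134 and 136 CPM in HRFR, then 109, 110 and 125 CPM after 1 h and 162, 139 and 151 CPM after 25 h. After 1 h no library of plants labelled hfr1-101 or of Col-0 reached the lowest HRFR library of its genotype, whereas in pif457 the 2 conditions overlapped.

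Of the tested members CER3 varied least within groups, with a coefficient of variation of 2.68% to 9.27%. After 1 h its log2 change was 0.13 (95% interval -0.02 to 0.29, edgeR adjusted p = 0.878) in pif457. It was -0.34 (SE 0.07, adjusted p = 0.00482) in libraries labelled hfr1-101 and -0.30 (SE 0.07, adjusted p = 0.017) in Col-0, both smaller than the fold threshold and so not called. At 25 h CER3 was higher than at 1 h by 0.34 (adjusted p = 0.00211) in libraries labelled hfr1-101 and by 0.39 (adjusted p = 0.000588) in Col-0, again under the fold threshold. In pif457 against Col-0, CER3 was higher by 0.34 at 1 h (adjusted p = 0.00535) and lower at 25 h, with a log2 difference of -0.30 (adjusted p = 0.0164).

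The interaction of pif457 with light was 0.43 for CER3 at 1 h (SE 0.10, adjusted p = 0.027). This call was lost in 7 of the 27 fits without 1 library, with the highest adjusted p, 0.0975, without pif457 HRFR replicate 2, and also without both distant Col-0 libraries (0.37, adjusted p = 0.0581). The 7 libraries were replicates 1 and 2 of pif457 at LRFR 1 h, replicates 2 and 3 of pif457 in HRFR, replicates 1 and 2 of Col-0 at LRFR 1 h, and replicate 1 of Col-0 in HRFR. The call of CER3 at 25 h was lost without replicate 2 of pif457 (-0.28, adjusted p = 0.0838) or without replicate 1 of Col-0 (-0.26, adjusted p = 0.0703) at that time. The change at 1 h in Col-0 without both distant libraries was -0.23 for CER3 (adjusted p = 0.0968) and -0.34 for KCS6 (adjusted p = 0.169).

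**Figure D2:**
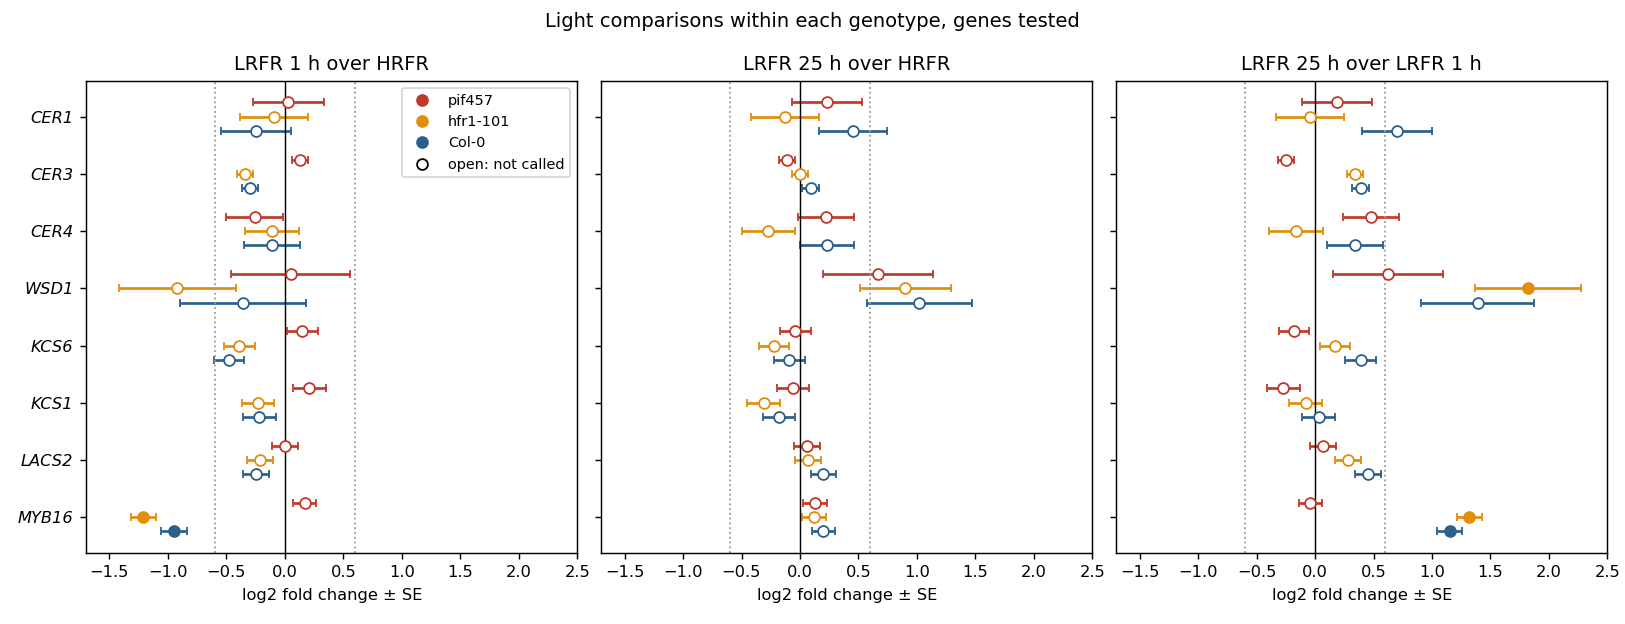
Log2 fold change ± SE (x axis) of the 8 tested genes in each light comparison within pif457, hfr1-101 and Col-0; filled points passed adjusted p below 0.05 and 0.6 (dotted lines). At 1 h only MYB16 is filled, at -1.21 in hfr1-101 and -0.95 in Col-0.

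CER1 (AT1G02205, chr1:418416-422579, plus strand), the partner of CER3 in alkane synthesis, had the widest spread of the abundant members. At LRFR 25 h it had 37.5, 36.3 and 38.4 CPM in pif457, 59.7, 33.0 and 40.6 in libraries labelled hfr1-101, and 84.5, 38.9 and 30.6 in Col-0. In Col-0 HRFR it had 49.1, 31.8 and 31.7 CPM, so in both Col-0 groups replicate 1, the distant library, was the high one. Its change at 25 h against 1 h in Col-0 was 0.70 (SE 0.30, edgeR adjusted p = 0.133), and no comparison called CER1 with all 27 libraries. That CER1 change rested on single libraries: it was 0.14 (adjusted p = 0.796) without replicate 1 of Col-0 at 25 h and 0.96 (adjusted p = 0.031, called) without replicate 3.

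CER4 (AT4G33790, chr4:16204096-16207956, minus strand), the reductase that makes primary alcohols, was called in no comparison. In Col-0 it had 13.1, 7.81 and 8.75 CPM at LRFR 25 h and 11.9, 7.29 and 6.08 CPM in HRFR, again highest in replicate 1. Its lowest group mean was 5.95 ± 0.40 CPM in pif457 at LRFR 1 h and its highest 11.2 ± 2.2 CPM in libraries labelled hfr1-101 in HRFR (SD, n = 3 each). At 1 h the pif457 libraries (6.29, 6.05 and 5.50 CPM) lay below those of Col-0 (6.63, 7.47 and 9.47 CPM), a log2 difference of -0.40 (SE 0.25, adjusted p = 0.534).

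WSD1 (AT5G37300, chr5:14767426-14770396, plus strand) joins acids and alcohols into wax esters. It had 296 reads over the 27 libraries, 3 to 30 in each. At 25 h it had 0.259, 0.393 and 0.585 CPM in pif457, 0.857, 0.563 and 0.870 in libraries labelled hfr1-101, and 0.703, 0.407 and 0.563 in Col-0. At 1 h the same genotypes had 0.222 to 0.304, 0.183 to 0.257 and 0.181 to 0.257 CPM. WSD1 was higher at 25 h than at 1 h in libraries labelled hfr1-101 by 1.82 (SE 0.45, edgeR adjusted p = 0.00553), a call kept in all 27 fits without 1 library. The same comparison of WSD1 gave 0.62 (SE 0.47, adjusted p = 0.561) in pif457 and 1.39 (SE 0.48, adjusted p = 0.0599) in Col-0, where 3 of the 27 fits without 1 library called it. Whether these changes differ between genotypes was not tested for 25 h against 1 h. At 25 h against HRFR the WSD1 differences were 0.67 in pif457, 0.90 in libraries labelled hfr1-101 and 1.02 in Col-0, none called with all 27 libraries. Leaving out 1 library moved these WSD1 differences between 0.27 and 1.64 in pif457, 0.77 and 1.07 in libraries labelled hfr1-101 and 0.70 and 1.66 in Col-0, and the Col-0 difference was called without replicate 2 of Col-0 in HRFR (1.66, adjusted p = 0.0404).

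MAH1 (AT1G57750, chr1:21383812-21385709, minus strand; CYP96A15 in RefSeq), the cytochrome P450 that hydroxylates alkanes, had 3 reads in all. They were 1 read in each library labelled hfr1-101 at LRFR 25 h, with none in the other 24 libraries. No fold was computed, since these values are within the 3 reads that a count of 0 allows in a library.

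LACS2 (AT1G49430, chr1:18290942-18295905, plus strand) activates fatty acids for cutin. At LRFR 25 h it had 77.5, 74.1 and 72.6 CPM in pif457, 88.3, 81.2 and 75.7 in libraries labelled hfr1-101, and 95.2, 78.7 and 71.4 in Col-0. At LRFR 1 h it had 70.2, 71.6 and 72.4 CPM in pif457, 61.2, 71.0 and 69.4 in libraries labelled hfr1-101, and 56.3, 56.0 and 67.5 in Col-0. The 25 h and 1 h libraries did not overlap in any genotype, but in pif457 they were separated only narrowly (72.6 against 72.4 CPM). The share of all genes separated in this way was not counted. The log2 difference was 0.07 (edgeR adjusted p = 0.839) in pif457, 0.28 (adjusted p = 0.0814) in libraries labelled hfr1-101 and 0.45 (SE 0.11, adjusted p = 0.00821) in Col-0, under the fold threshold. LACS2 was the only cutin enzyme among the members, and its groups never differed by more than 1.36 times in mean level.

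Across the members, none of the 8 tested was called after 1 h in pif457 by edgeR or DESeq2, where 0.148% of all tested genes were called, and none had an unadjusted p below 0.05. The median log2 change there was 0.09. In libraries labelled hfr1-101, 1 of 8 was called at 1 h (MYB16, lower), against 2.5% of all genes, and 2 passed with no fold threshold (MYB16 and CER3), against 4.91%. In Col-0, 1 of 8 was called at 1 h (MYB16, lower), against 2.11%, and 3 passed with no fold threshold (MYB16, CER3 and KCS6), against 4.4%. All 8 had a negative change in both of these genotypes, with medians of -0.28 in libraries labelled hfr1-101 and -0.27 in Col-0, beside medians of 0.01 and -0.01 over all genes. Without both distant Col-0 libraries, 1 of 8 passed in Col-0 with no fold threshold, 7 of 8 were negative and the median was -0.17.

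The comparison of 25 h with 1 h called no member in pif457 by edgeR or DESeq2, against 1.33% of all genes, with 1 member at an unadjusted p below 0.05. In libraries labelled hfr1-101 it called 2 of 8 (MYB16 and WSD1, higher), against 7.06%, and 3 passed with no fold threshold, against 20.1%. In Col-0 it called 1 of 8 (MYB16, higher), against 5.02%, and 4 passed with no fold threshold (MYB16, CER3, KCS6 and LACS2), against 13.5%, or 3 without both distant libraries, where KCS6 did not pass (0.31, adjusted p = 0.0942). Between 25 h and HRFR no member was called by edgeR or DESeq2 in pif457 (0.919% of all genes called), in libraries labelled hfr1-101 (6.61%) or in Col-0 (4.04%), and 0, 2 and 1 members had an unadjusted p below 0.05. These light comparisons share their libraries within a genotype.

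Between genotypes, pif457 against Col-0 called none of 8 members in HRFR (2.7% of all genes), with 3 at an unadjusted p below 0.05 and 1 (KCS1) called by DESeq2. It called 2 at 1 h (MYB16 and CER3, higher), against 4.21%, and 1 at 25 h (CER3, lower), against 6.87%. The median of the members was -0.24 in HRFR, 0.27 at 1 h and -0.31 at 25 h, while over all genes it was between -0.01 and 0.01. Without both distant Col-0 libraries the median was -0.11 in HRFR, 0.27 at 1 h and -0.22 at 25 h, and 5 of 8 members were negative in HRFR in place of 7. For libraries labelled hfr1-101 against Col-0, no member was called in HRFR (0.0814% of all genes called), at 1 h (0.177%) or at 25 h (0.254%). None had an unadjusted p below 0.05 and none was called by DESeq2. The members' median was 0.13 in HRFR (8 of 8 positive), 0.13 at 1 h (7 of 8) and -0.02 at 25 h (3 of 8). Without both distant Col-0 libraries it was 0.26 (8 of 8), 0.14 (7 of 8) and 0.11 (8 of 8). The interaction of pif457 with light called 2 members at 1 h (MYB16 and CER3), against 2.04%, and none at 25 h, against 0.46%. The interaction of hfr1-101 with light called 0% of all genes and no member at either time, by edgeR, and no member by DESeq2 or at an unadjusted p below 0.05.

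The members deviated together within groups. All 8 tested members were above the group mean in replicate 1 of Col-0 at LRFR 25 h, and 7 of 8 were in replicate 1 of Col-0 in HRFR. Replicate 3 of Col-0 at LRFR 1 h also had 8 of 8 above the mean, and replicate 1 of the HRFR libraries labelled hfr1-101 had none. Across the 27 libraries, deviations from group means correlated at r = 0.95 between CER3 and KCS1, 0.89 between CER1 and LACS2 and 0.85 between KCS6 and KCS1, and at -0.05 to 0.16 between WSD1 and the other members. These points share libraries, so each r is a description.

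Marker sums of several tissues and of heat and handling stress also stood apart in the same 2 Col-0 libraries, some high and some low. The 7 root endodermis and suberin genes summed to 295, 151 and 169 CPM over Col-0 LRFR 25 h replicates 1 to 3 and to 212, 147 and 159 CPM over Col-0 HRFR. The 5 trichome and root hair genes summed to 67.9, 34.3 and 31.9 CPM and to 55.5, 35.0 and 35.1 CPM in these groups. The epidermis sum was 898, 786 and 829 CPM at Col-0 LRFR 25 h and 814, 767 and 770 CPM in Col-0 HRFR. The 5 mesophyll and photosynthesis genes were lowest there, with sums of 31400, 44700 and 42200 CPM over Col-0 LRFR 25 h replicates 1 to 3 and 49200, 50400 and 57000 CPM over Col-0 HRFR. The 4 guard cell genes summed to 90.0, 78.5 and 90.5 CPM and to 55.9, 60.5 and 63.7 CPM in these groups. The 6 heat and handling stress genes summed to 213, 147 and 164 CPM and to 113, 86.7 and 85.7 CPM. The part of these markers in the levels of CER1, CER4 and KCS1 was not tested.

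**Figure D3:**
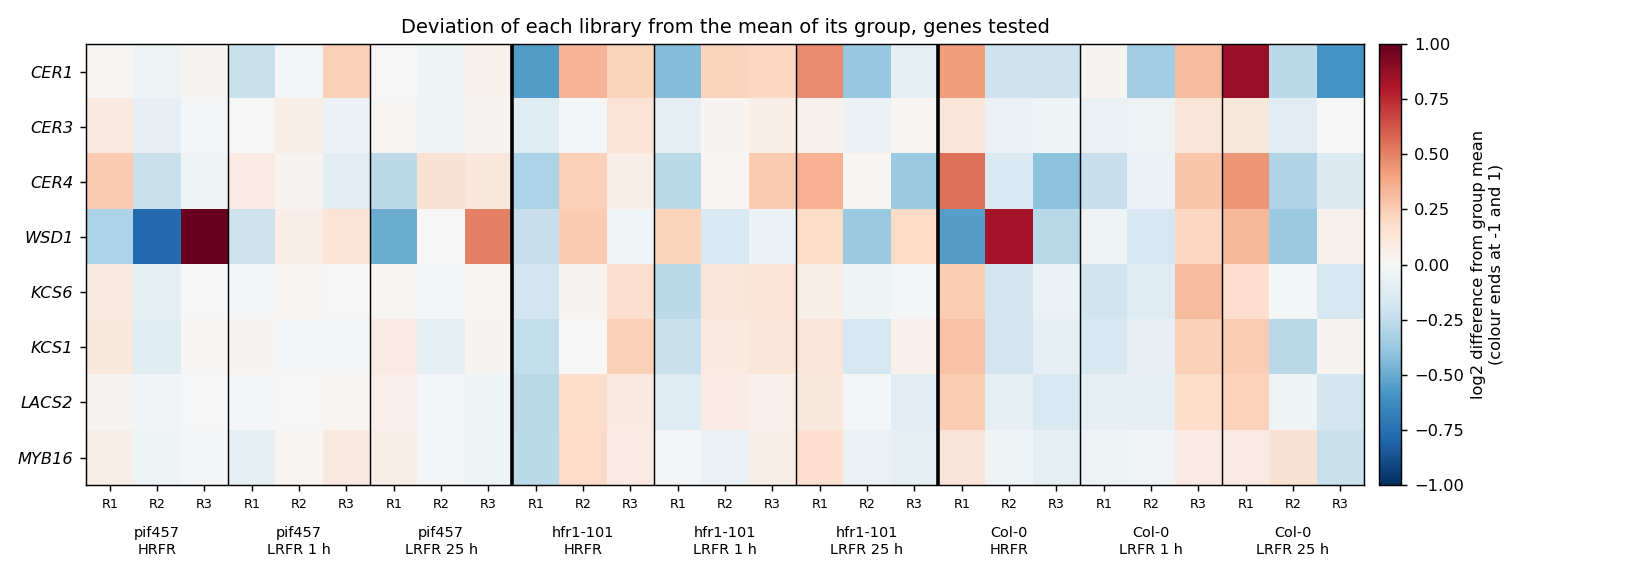
Log2 difference of each library from the mean of its group (colour) for the 8 tested genes (rows) in the 27 libraries (columns, R1 to R3 within each group). R1 of Col-0 LRFR 25 h is above its group mean in 8 genes and R1 of Col-0 HRFR in 7.

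The genes whose log2 levels followed each member most closely over the 27 libraries were listed by Pearson's r. For KCS6 these were CYP86A2, a cutin hydroxylase (r = 0.96), TBL25 (0.95) and AT5G19250 (0.93), and for KCS1 they were GPAT8, a cutin acyltransferase (0.95), AT2G35050 (0.94) and AT4G38690 (0.94). CER3 was closest to AT4G25830 (0.93), the wax and cutin exporter ABCG11 (0.92) and DCF (0.91), and CER1 to AT2G33850 (0.92), the GDSL lipase-like AT5G33370 (0.91) and AT5G55720 (0.91). LACS2 was closest to SIP1 (0.90), LACS3 (0.90) and AT3G26450 (0.89), CER4 to AT4G26010, LRX1 and HRGP1 (0.92 each), and MYB16 to AT5G55620 (0.95), PIP5K2 (0.95) and AT4G15630 (0.94). WSD1 had the weakest matches, CLE43 (0.84), NGA1 (0.80) and AT1G78210 (0.79). Of these closest genes, only CYP86A2, GPAT8, ABCG11 and AT5G33370 are in the wax, cutin and regulator lists described next. The closest genes of CER4, LACS2, MYB16 and WSD1 are in none of those lists. The libraries shared by all genes enter every one of these values.

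The 3 further lists gave the wider pathway: 15 other wax synthesis and export genes, 14 other cutin genes and 14 other cuticle regulators, of which 13 were tested. The regulator list was not split into activators and repressors of cuticle genes. After 1 h no gene of the wax and cutin lists was called in any genotype by edgeR. Over all genes 0.148% were called in pif457, 2.5% in libraries labelled hfr1-101 and 2.11% in Col-0. Of the regulators 1 was called at 1 h, AT5G61590, lower in libraries labelled hfr1-101 (-0.72, edgeR adjusted p = 0.000368). With no fold threshold, none of 15 wax genes passed in pif457 (list median 0.01). At this setting 5 were lower in libraries labelled hfr1-101 (median -0.26) and 5 were lower in Col-0 (median -0.32). Over all genes 0.215% passed in pif457, 4.91% in libraries labelled hfr1-101 and 4.4% in Col-0. Of the 14 cutin genes none passed in pif457 (median 0.10), 1 was lower in libraries labelled hfr1-101 (median -0.19) and 2 were lower in Col-0 (median -0.25). Of the 13 regulators none passed in pif457 (median 0.04) and 3 were lower in libraries labelled hfr1-101 (median -0.24). In Col-0 2 regulators were lower, with a list median of -0.08, nearer to that of all genes. Without both distant Col-0 libraries these counts in Col-0 were 2 wax genes (median -0.21), 1 cutin gene (median -0.11) and 1 regulator (median -0.09). The median over all genes lay between -0.01 and 0.01 in these comparisons.

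**Figure D4:**
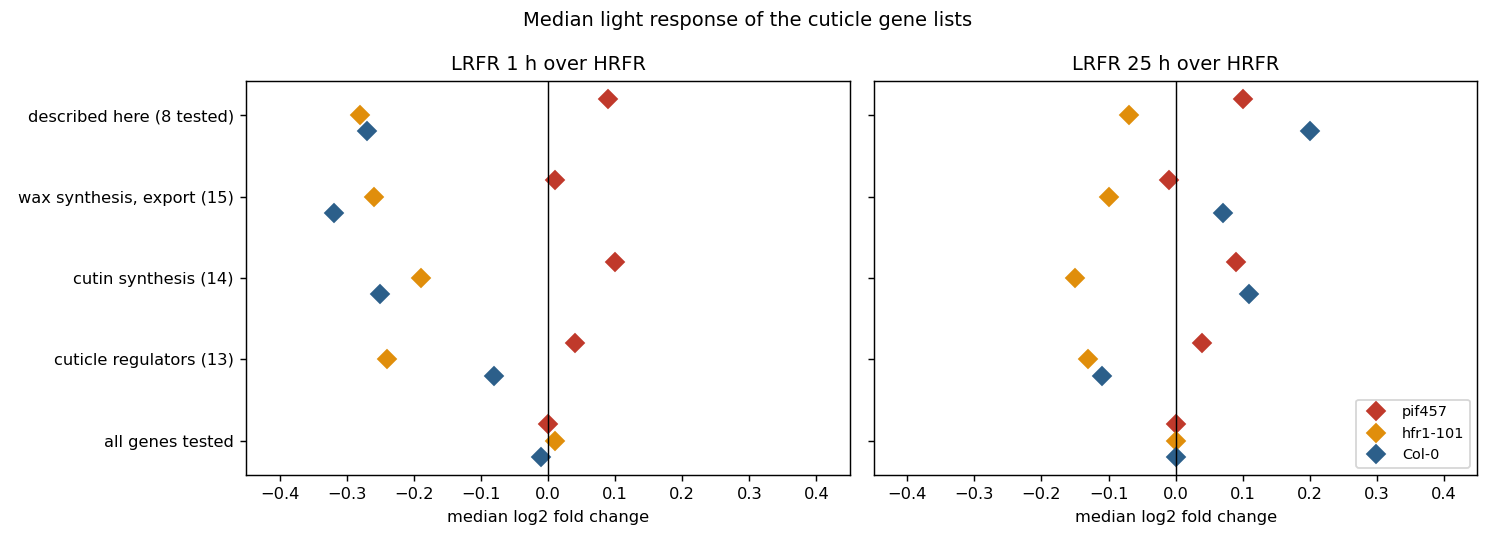
Median log2 fold change (x axis) of the tested members, of the 3 further lists and of all genes tested, at LRFR 1 h and LRFR 25 h over HRFR within pif457, hfr1-101 and Col-0 (diamonds). At 1 h the members' medians are 0.09 in pif457, -0.28 in hfr1-101 and -0.27 in Col-0.

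At 25 h against 1 h in Col-0, 7 of 15 wax genes passed with no fold threshold, against 13.5% of all genes, all higher (list median 0.39), and 5 did without both distant libraries (median 0.21). Of the 7, CER10, the enoyl-CoA reductase of the elongase, was called at 0.72 (SE 0.08, adjusted p = 1.42e-06). Compared with Col-0 at 25 h, pif457 had lower LTPG2, a lipid transfer protein, at 154 against 231 CPM (log2 difference -0.59, adjusted p = 0.0019), lower CER2 at 64.4 against 91.2 CPM (-0.50, adjusted p = 0.00512), lower PAS2 (-0.37, adjusted p = 0.0273) and lower CER10 (-0.30, adjusted p = 0.0331). CER2 and PAS2 both act in fatty acid elongation. In HRFR, LTPG2 was also lower in pif457 (-0.43, adjusted p = 0.0351). Among cutin genes BDG1, an alpha/beta hydrolase, was lower in pif457 than in Col-0 in all 3 light conditions, with log2 differences of -0.50, -0.43 and -0.47 in HRFR, at 1 h and at 25 h (edgeR adjusted p = 0.0153, 0.0216 and 0.0113). GPAT8 was lower in HRFR (-0.45) and at 25 h (-0.38), and LTL1, a GDSL lipase-like gene, was higher at 1 h (0.57, adjusted p = 0.007). For pif457 against Col-0, 1 of 15 wax and 2 of 14 cutin genes were called in HRFR, against 2.7% of all genes. At 1 h 0 and 2 were called, against 4.21%, and at 25 h 4 and 2, against 6.87%. Without both distant Col-0 libraries no wax or cutin gene was called in HRFR (1.59% of all genes). At 25 h without them, 2 wax genes and 1 cutin gene were called lower in pif457 (6.48% of all genes).

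Among the regulators AT5G61590, an ERF-family gene, averaged 14.2 CPM at 25 h against 25.1 in HRFR in pif457, 12.3 against 37.2 in libraries labelled hfr1-101 and 15.5 against 33.9 in Col-0. Its log2 changes of -0.82, -1.60 and -1.13 were all called (edgeR adjusted p = 0.000443, 4.11e-09 and 1.2e-06). MYB41 was higher at 25 h than in HRFR in libraries labelled hfr1-101 (1.18, adjusted p = 0.000674) and in Col-0 (1.59, adjusted p = 5.61e-05, 5.65 against 1.87 CPM). MYB106, the closest relative of MYB16, was called at 25 h against 1 h in Col-0 (0.97, SE 0.30, adjusted p = 0.0333). Its spread at 25 h was wide, at 9.21 ± 3.98 CPM against 4.72 ± 0.47 CPM at 1 h (SD, n = 3 each). MYB30 was lower at 25 h in libraries labelled hfr1-101 (-0.73, adjusted p = 3.69e-07), as was SHN2 (-1.06, adjusted p = 0.0474, at 0.591 against 1.24 CPM), and SPL9 was higher there at 25 h than at 1 h (0.84, adjusted p = 0.00159). At 25 h pif457 had lower MYB94 (-0.34, adjusted p = 0.0348) and higher CER7, an exosome subunit (0.28, adjusted p = 0.0406), than Col-0, and without both distant Col-0 libraries no regulator was called there. For pif457 against Col-0 at 25 h, MYB94 and CER7 were 2 of 13 tested, against 6.87% of all genes, or 6.48% without both distant libraries. At 25 h against 1 h in Col-0, 2 of 13 tested regulators were called higher (MYB41 and MYB106) and 1 lower (AT5G61590). Over all genes 5.02% were called. Without both distant libraries 1 was called higher and 2 lower, against 5.08%. No gene of the 3 lists was called in an interaction of genotype with light. For pif457 these interactions called 2.04% of all genes at 1 h and 0.46% at 25 h. For hfr1-101 they called 0% at both times.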

How the data were processed

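Whole-seedling RNA was sequenced from 27 libraries in 9 groups of 3. According to the study's methods, the authors used Cutadapt for trimming, STAR for alignment to TAIR10 and HTSeq for counting, and the deposited values are raw counts per gene. Sources used here give neither the strand setting nor tool versions. Lines for reads in no gene, 6.15% to 7.09% of a library, were left out. Counts were scaled by TMM, filtered with filterByExpr and tested with edgeR 4.0.16 (R 4.3.3) in 1 quasi-likelihood fit of the 27 libraries and 9 groups, with Benjamini-Hochberg adjustment over 20887 genes. The 19 comparisons were 9 between light conditions, 6 between genotypes and 4 interactions, with the thresholds given above. CPM used the same scaling. DESeq2 1.42.0, other normalizations, smaller fits, a replicate block and leaving out libraries were alternatives. The script was tested on simulated data.

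The members and lists were chosen with earlier results of these data known. Named genes are all members, genes of the further lists called in at least 1 comparison, the 3 genes closest to each member, and the mutated genes. Of 34262 identifiers, 32548 matched the RefSeq annotation of TAIR10.1, which gave positions, exon lengths and sequences. Libraries are separate pools of seedlings. Each p-value rests on 1 estimate per gene of the spread between them, shared by all 9 groups. That spread was unequal: at LRFR 25 h the coefficient of variation of CER1 was 2.78% in pif457 and 56.6% in Col-0. For KCS6 at LRFR 1 h it was 1.52% in pif457 and 20.4% in Col-0. Numbers called in fits of only the groups compared are given below. Same-numbered libraries deviated together, with all 3 correlations above 0.1, in 2 of 15 comparisons only (LRFR 25 h against HRFR in Col-0, and hfr1-101 against Col-0 at 25 h), judged from the data and not from a label. Figures used matplotlib 3.10.9.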

Additional observations from a re-analysis of the deposited data

Results flagged for a closer look

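The light response after 1 h of LRFR differed between pif457 and Col-0 by the edgeR interaction test for 2 of the 8 tested members. This test called 2.04% of all genes. For MYB16 the difference of log2 changes was 1.12 (SE 0.15, adjusted p = 4.05e-05), with a change of 0.17 in pif457 and -0.95 in Col-0. For CER3 the difference of log2 changes was 0.43 (SE 0.10, adjusted p = 0.027), with a change of 0.13 in pif457 and -0.30 in Col-0. The CER3 call was lost with only the groups compared (edgeR adjusted p = 0.0639) and in the fit of 18 libraries (0.0542). It was also lost without both distant Col-0 libraries (0.0581). Groups of 3 libraries were too small for a search for outlying values.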

How the results depend on the processing

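No member call changed direction in any alternative. Called after dropping the fold threshold were 3 members at 1 h and 4 at 25 h against 1 h in Col-0, and 2 at 1 h in hfr1-101. For pif457 against Col-0 in HRFR, DESeq2 and the replicate block each called 1 member (KCS1) in place of 0. At 25 h that comparison called 2 members (CER3 and MYB16) with DESeq2 size factors, with no filter, with DESeq2's test and in a fit of 18 libraries (pif457 and Col-0 only), and 0 with only the groups compared. The pif457 interaction at 1 h called 1 member with only the groups compared, with the 18 libraries and without both distant Col-0 libraries. Leaving out each library in turn, the number called ranged from 1 to 2 at 1 h in Col-0, 0 to 1 at 25 h against HRFR in Col-0, 1 to 2 at 25 h against 1 h in Col-0, 0 to 1 for pif457 against Col-0 in HRFR, 2 to 3 at 1 h, 0 to 2 at 25 h and 1 to 3 for the pif457 interaction at 1 h. The replicate block, a term for replicate number shared by all 9 groups, changed no member call other than that of KCS1 in HRFR. Over 4104 leave-one-out values, 9 of the calls were lost and 24 gained. The causes were not tested. Depth limits WSD1, SHN1 and MAH1. The number of all genes called moved by more than 1.5 times in some comparisons: with DESeq2 it was 946 in place of 563 for pif457 against Col-0 in HRFR, 56 in place of 37 and 86 in place of 53 for hfr1-101 against Col-0 at 1 h and 25 h, 196 in place of 96 for the pif457 interaction at 25 h, and 4 and 5 in place of 0 for the hfr1-101 interactions. Without both distant Col-0 libraries the number was 334 for pif457 against Col-0 in HRFR, 111 for hfr1-101 against Col-0 at 1 h and 154 for the pif457 interaction at 25 h. With only the groups compared it was 416 in place of 844 at 25 h against HRFR and 567 in place of 1049 at 25 h against 1 h in Col-0, 321 in place of 192 at 25 h against HRFR in pif457, 228 in HRFR and 325 in place of 1435 at 25 h for pif457 against Col-0, 20 and 13 for hfr1-101 against Col-0 at 1 h and 25 h, and 35 for the pif457 interaction at 25 h. The fit of 18 libraries gave 354 for pif457 against Col-0 in HRFR, 48 for the pif457 interaction at 25 h and 20 in place of 31 at 1 h in pif457. The hfr1-101 interactions gave 1 gene in place of 0 at 1 h without both distant libraries and at 25 h with the replicate block.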
